A study of Mus musculus with 22 samples.

Results

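The promoters of 10 mouse genes that normally act in germ cells were followed: Dazl, Ddx4, Sycp1, Sycp3, Mael, Asz1, Tdrd1, Hormad1, Stk31 and Piwil2. A promoter was taken as all CpG positions within 2 kb of a curated RefSeq transcription start site (TSS) of the gene that were read at least 10 times in each of the 22 samples, and its methylation level was the unweighted mean percent methylation over those positions. The rule gave 291 of the 1140639 positions covered in all samples, and 9 of the 10 genes had at least 3 of them, among 16407 genes with such a promoter. Stk31, a gene for a testis protein with Tudor and kinase domains, had no position within 2 kb of its TSS in any sample and was not measured. Methylation was read by enhanced reduced representation bisulfite sequencing (ERRBS), which cuts DNA at CCGG sites and reads methylated cytosines as C and unmethylated ones as T. The tumors came from female PyMT mice, heterozygous for a polyomavirus middle T transgene driven by the MMTV promoter in mammary epithelium on an FVB background, and the controls were normal mammary glands of age-matched female FVB mice without the transgene. Samples were taken at weeks 6, 8, 10 and 12, which in PyMT mice stand for hyperplasia, adenoma/MIN (MIN is mammary intraepithelial neoplasia), early carcinoma and, last, late carcinoma, with 2, 3, 3 and 2 PyMT samples and 3 FVB samples at each age. Whole tissue was used in both strains, so a change in the mix of cells and a change within cells cannot be told apart. Mean coverage per sample was 60.2 to 79.2 reads per position over 1314077 to 1435757 positions. The samples of 2 mice stood apart: in principal components of all covered positions FVB week 8 replicate 2 scored -7285 on the second component, against -793 to 1558 in the other 21 samples, and in those of the promoters PyMT week 8 replicate 1 scored -535, against -31.5 to 131.

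Germline genes of this kind hold CpG-dense promoters that receive DNA methylation in the early embryo and keep it in somatic tissue, where the genes are silent. In the germline the same promoters lose their methylation before the genes are switched on. In the embryo the methylation is laid down by DNMT3B at promoters marked by a Polycomb complex that holds E2F6 and the E-box factors MGA and MAX. The products act in meiosis or in defence against transposons: Sycp1 is the transverse filament and Sycp3 an axial element of the synaptonemal complex that joins homologous chromosomes, and Hormad1 is a HORMA-domain protein of the chromosome axis. Piwil2 is a PIWI protein that binds piRNAs, and Mael, Asz1, Tdrd1 and the RNA helicase Ddx4 work with it in the cytoplasmic granules of germ cells where piRNAs are made. Dazl is an RNA-binding protein that controls translation in germ cells. The question put to the data was whether these normally methylated promoters lose methylation in the tumors.

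The stretches upstream of 5 of the TSSs are shown because the largest differences fell there or because they hold the letters searched for E2F6 and for MGA and MAX. The sequences are from RefSeq, build GRCm38.p6, given 5′ to 3′ on the strand of the gene, and cover the 250 bases before the TSS. In the first 4, capitals mark the E2F6 core (GGCGGGA, or TCCCGCC on the other strand) and the E-box CACGTG, which reads the same on both strands. In Asz1, which held neither, capitals mark the CpGs measured in every sample.
Ddx4, chr13:112652311-112652560, minus strand: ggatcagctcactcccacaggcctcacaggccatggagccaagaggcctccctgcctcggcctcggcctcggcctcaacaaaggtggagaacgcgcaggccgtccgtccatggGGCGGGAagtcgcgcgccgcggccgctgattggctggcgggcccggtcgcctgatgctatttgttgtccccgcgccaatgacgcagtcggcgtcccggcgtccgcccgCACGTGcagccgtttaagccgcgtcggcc
Sycp1, chr3:102936101-102936350, minus strand: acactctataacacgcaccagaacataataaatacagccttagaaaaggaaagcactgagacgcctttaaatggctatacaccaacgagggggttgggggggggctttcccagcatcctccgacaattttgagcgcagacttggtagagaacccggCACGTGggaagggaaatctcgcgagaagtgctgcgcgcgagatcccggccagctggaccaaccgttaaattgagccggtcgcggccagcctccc
Mael, chr1:166238745-166238994, minus strand: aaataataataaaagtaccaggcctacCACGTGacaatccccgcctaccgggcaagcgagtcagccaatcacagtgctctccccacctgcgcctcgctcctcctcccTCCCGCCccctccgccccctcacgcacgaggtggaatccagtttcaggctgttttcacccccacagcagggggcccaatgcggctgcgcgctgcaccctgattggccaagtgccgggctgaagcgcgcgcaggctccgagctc
Hormad1, chr3:95559427-95559676, plus strand: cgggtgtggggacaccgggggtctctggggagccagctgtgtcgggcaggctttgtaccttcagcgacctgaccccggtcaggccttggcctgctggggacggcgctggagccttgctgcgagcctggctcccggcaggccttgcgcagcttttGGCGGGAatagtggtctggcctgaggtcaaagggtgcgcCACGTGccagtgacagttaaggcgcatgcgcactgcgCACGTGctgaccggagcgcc
Asz1, chr6:18109062-18109311, minus strand: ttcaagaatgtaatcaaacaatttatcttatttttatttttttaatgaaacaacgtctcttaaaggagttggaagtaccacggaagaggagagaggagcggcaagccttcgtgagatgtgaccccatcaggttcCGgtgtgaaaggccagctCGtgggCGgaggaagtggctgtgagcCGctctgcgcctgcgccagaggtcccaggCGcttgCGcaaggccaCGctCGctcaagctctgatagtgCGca

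Of the 10 genes, 9 had a RefSeq promoter sequence, which reaches from 250 bases before to 50 bases after the TSS, and Piwil2 had none. The E-box was found in 7 of the 9 genes (Mael, Hormad1, Sycp1, Stk31, Sycp3, Ddx4 and Tdrd1), whereas 8.09% of all 27025 genes with such a sequence and 7.88% of the 1091 with a control methylation of at least 50% held it. The E2F6 core was found in Mael, Hormad1 and Ddx4, and in 12.7% of all genes. All 3 of these genes also held the E-box, a pair found in 1.63% of all genes. Neither set of letters was found in Asz1 or Dazl in this window. The Dazl intron stretch shown further on lies outside the window and holds both, as CACGTG and TCCCGCC. A match describes the letters only and does not show that a factor binds there.

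In normal mammary glands 8 of the 9 measured promoters were methylated on average at 69.2% or more, and in the tumors 3 of the 9 were more methylated, 2 were less methylated and 4 did not pass the test. The promoters that gained methylation were Sycp1 (by 9.68 percentage points), Ddx4 (by 9.13) and Mael (by 7.06). Those that lost it were Asz1 and Piwil2, which fell by 5.61 and 5.70 points. No measured promoter approached the unmethylated state in any tumor: the lowest value among the 8 methylated promoters was 60.7%, for Tdrd1 in a PyMT sample of week 6. Each comparison was made with limma over all weeks with week as a term, and p-values were adjusted by Benjamini and Hochberg over all 16407 promoters. Of all promoters, 17.1% were called lower and 16.9% higher in PyMT by this test. Among the 1650 promoters with a control mean of at least 50%, 45.9% were called lower and 15.6% higher, against 2 and 3 of the 8 methylated germline promoters. Without FVB week 8 replicate 2 or without PyMT week 8 replicate 1 the same 5 promoters were called, with differences of 8.18 and 9.28 points for Ddx4, 9.35 and 9.55 for Sycp1, 6.91 and 7.02 for Mael, -5.32 and -5.62 for Asz1 and -5.42 and -5.48 for Piwil2. The median difference was -2.96 points over these 1650 promoters and 2.71 points over the 8 methylated germline promoters. It was -0.0062 points over all promoters and 1.81 points over the 9 germline promoters.

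**Figure D1:**
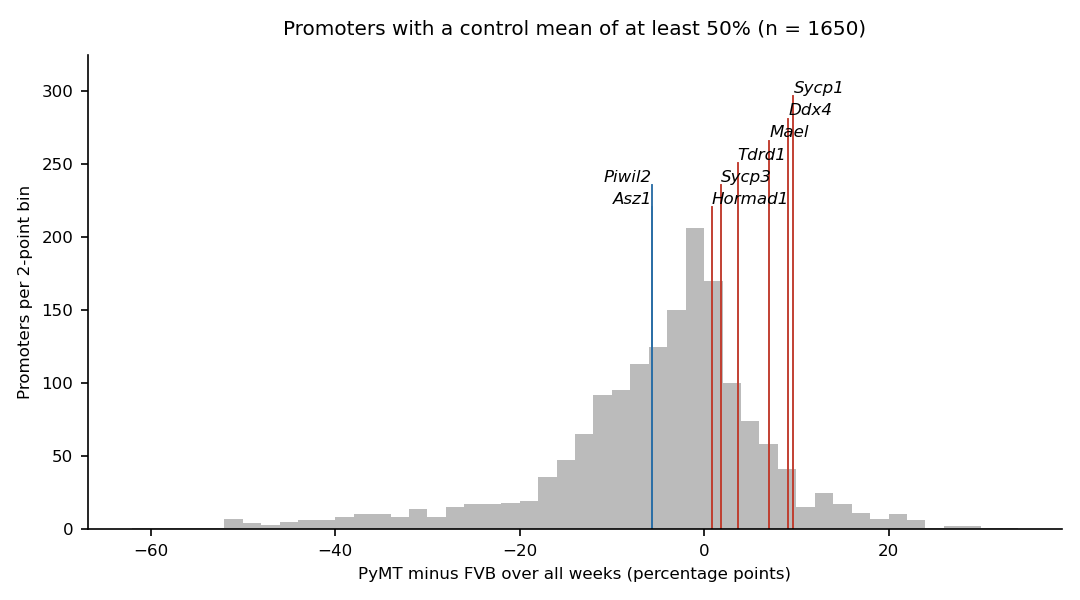
Differences in promoter methylation (PyMT minus FVB over all weeks, percentage points, horizontal axis) for the 1650 promoters with a control mean of at least 50%, as the number of promoters in each 2-point bin (vertical axis). Lines mark the 8 methylated germline promoters, 6 of them right of 0 and 2 left of it, while the median of all 1650 was -2.96 points.

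Ddx4 had 31 positions between 134 bp upstream and 120 bp downstream of its TSS (chr13:112652310, minus strand), 22 upstream of the TSS and 9 in an intron, read 45.5 times on average. Its methylation in the 10 PyMT samples ranged from 82.8% to 91.5% with a median of 90.3%, and in the 12 FVB samples from 71.7% to 87.8% with a median of 80.3%. The 8 other PyMT samples were above every FVB sample, and 2 PyMT samples (82.8% at week 6 and 87.7% at week 8) were below the highest FVB sample. The mean was 89.4% ± 2.60 (SD, n = 10) in PyMT and 80.3% ± 3.77 (SD, n = 12) in FVB, a difference of 9.13 points (SE 1.49, limma adjusted p = 4.12e-05). The exact permutation test of strain within week, two-sided over 40000 arrangements, gave p = 0.0001. PyMT was above FVB at 30 of the 31 positions, and the gain was spread over both sides of the TSS, with 10 positions called higher and 0 lower by limma over all weeks. The largest of these was 124 bp upstream, at 87.7% ± 7.17 in PyMT and 63.9% ± 18.5 in FVB.

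Sycp1 had 32 positions from 599 bp upstream to 284 bp downstream of its TSS (chr3:102936100, minus strand), 17 upstream and 15 in an intron. The PyMT samples ranged from 75.4% to 85.1% with a median of 79.5%, and the FVB samples from 65.1% to 76.0% with a median of 70.7%. All PyMT samples but 1, of week 8, were above every FVB sample. The means were 80.0% ± 2.71 (n = 10) and 70.5% ± 3.36 (n = 12), and the difference of 9.68 points (SE 1.37) had a limma adjusted p of 7.99e-06 and an exact permutation p of 5e-05. Of its positions, 31 were higher in PyMT and 13 passed the test over all weeks. By a test on pooled reads, 1 position of Sycp1 was a differentially methylated cytosine (DMC, defined further on) higher at every stage. This CpG, 75 bp upstream of the TSS, was methylated at 75.1% ± 10.9 in PyMT and 46.5% ± 10.9 in FVB, and no other position of Sycp1 differed by more.

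The E-box of Sycp1 lay further upstream. Its CpG on the minus strand was at 64.6% ± 9.80 in PyMT and 45.8% ± 12.0 in FVB (difference 19.4 points, limma adjusted p = 0.0058 over all positions). On the plus strand the same CpG was at 55.1% and 51.9%, and this difference did not pass the test (adjusted p = 0.923). In Hormad1 the CpGs of the 2 E-boxes were at 64.8% and 69.0% in PyMT and at 62.7% and 67.9% in FVB, with adjusted p of 0.975 and 1, while its E2F6 core CpG was higher in PyMT (94.2% against 88.7%, adjusted p = 0.0273). The E2F6 core CpG of Ddx4 was at 88.5% and 81.2% (adjusted p = 0.309). Mael holds an E2F6 core 10 bp downstream of its TSS too, outside the stretch shown, and the 2 cytosines of its CpG were on average at 94.7% and 91.7% (adjusted p = 0.99 and 0.232). The E-box CpGs of Mael, Sycp3, Ddx4 and Tdrd1 were not covered in every sample.

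Mael had 30 positions from 30 bp upstream to 326 bp downstream of its TSS (chr1:166238744, minus strand), of which 11 were upstream, 17 in exons and 2 in an intron. The PyMT samples ranged from 81.9% to 90.0% with a median of 87.4%, and the FVB samples from 77.0% to 86.3% with a median of 79.6%. The FVB sample at 86.3% came from week 6, and every other FVB sample was at or below 82.0%. The difference between the means of 86.8% ± 2.29 and 79.9% ± 2.67 was 7.06 points when fitted with week (SE 1.15, limma adjusted p = 3.95e-05, exact permutation p = 0.00025). The called positions lay inside the gene: all 8 positions called higher over all weeks lay 32 to 148 bp downstream of the TSS, in an exon. The CpG at 74 bp, at 84.3% ± 5.32 in PyMT and 67.4% ± 10.9 in FVB, was a DMC higher at every stage.

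Asz1 went the other way. Its 17 positions lay within 119 bp of the TSS (chr6:18109061, minus strand), 9 upstream and 8 in an exon. The PyMT samples ranged from 82.9% to 89.0% with a median of 86.0%, and the FVB samples from 88.4% to 94.1% with a median of 91.5%. Only 1 PyMT sample, of week 8, was above the lowest FVB sample. The means were 85.8% ± 2.12 and 91.4% ± 1.92, a difference of -5.61 points (SE 0.934, limma adjusted p = 5.31e-05, exact permutation p = 5e-05). PyMT was below FVB at 14 of the 17 positions, and 5 were called lower, the largest 98 bp upstream of the TSS, at 63.4% ± 11.9 in PyMT and 82.0% ± 7.27 in FVB.

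Piwil2 was measured at only 5 positions, all inside the gene, 292 to 451 bp upstream of the internal TSS at chr14:70429108 (minus strand), and none near its first TSS at chr14:70436898 was covered in all samples. PyMT samples ranged from 67.5% to 80.9% with a median of 74.5%, and FVB samples from 73.7% to 84.8% with a median of 81.0%, so that the groups overlapped over much of their ranges. The difference was -5.70 points (SE 1.67, limma adjusted p = 0.0103). The position nearest to the internal TSS, at 49.9% ± 8.18 in PyMT and 64.3% ± 8.87 in FVB, was the 1 position of the 5 that passed the test. At 2 of the other positions the strains differed by -7.02 and -8.41 points, without passing (adjusted p = 0.324 and 0.148).

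**Figure D2:**
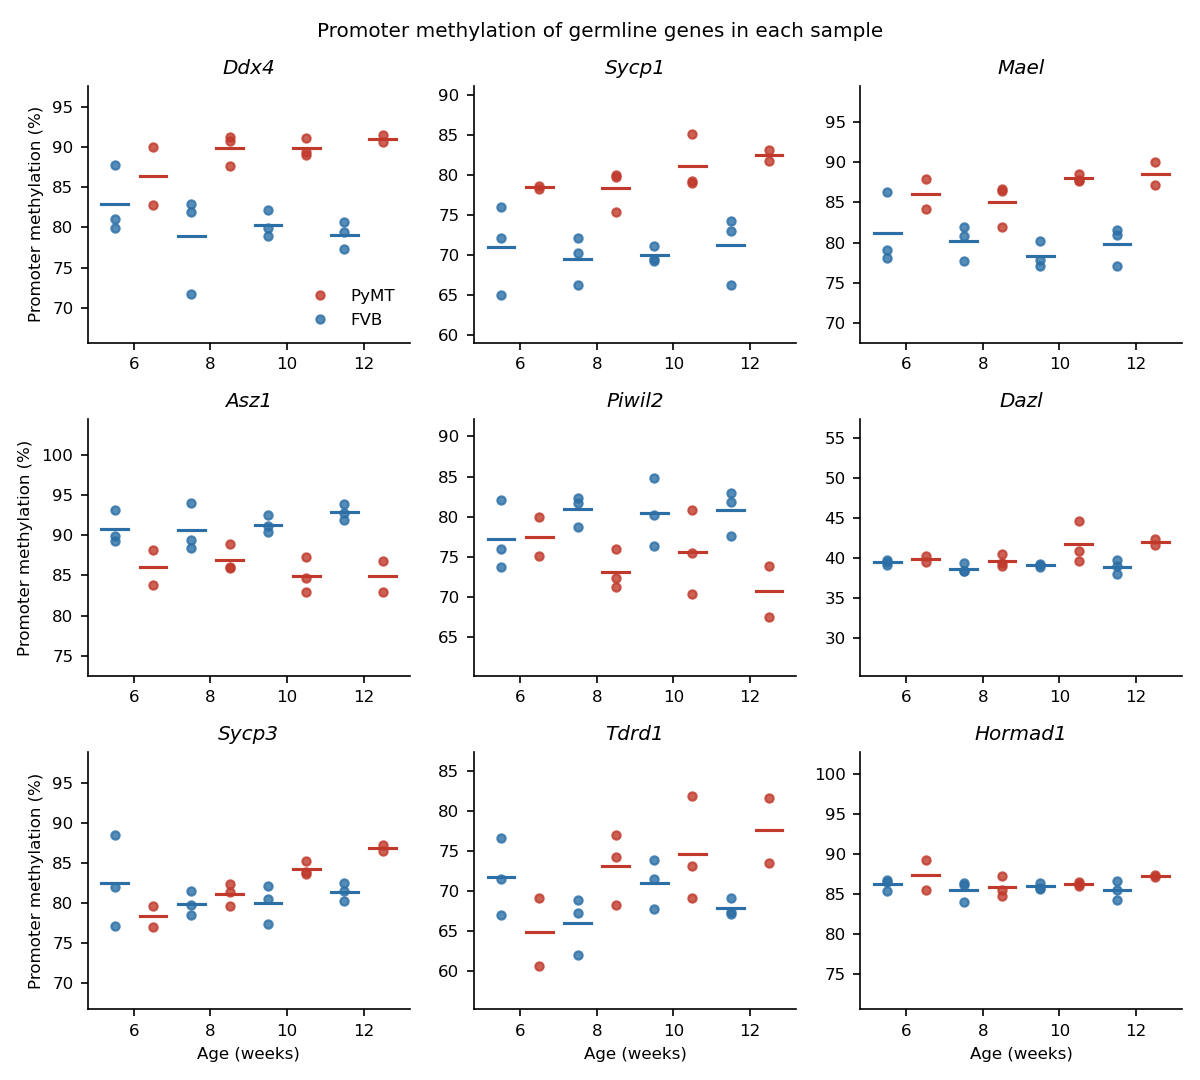
Promoter methylation in percent (vertical axis) of each sample against age in weeks (horizontal axis) for the 9 measured germline genes. Points are samples, red for PyMT and blue for FVB, bars are group means, and the vertical axis spans the same width in every panel but does not start at 0. Ddx4, Sycp1 and Mael lie higher and Asz1 lower in PyMT, and the 2 strains lie close together for Hormad1.

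**Figure D3:**
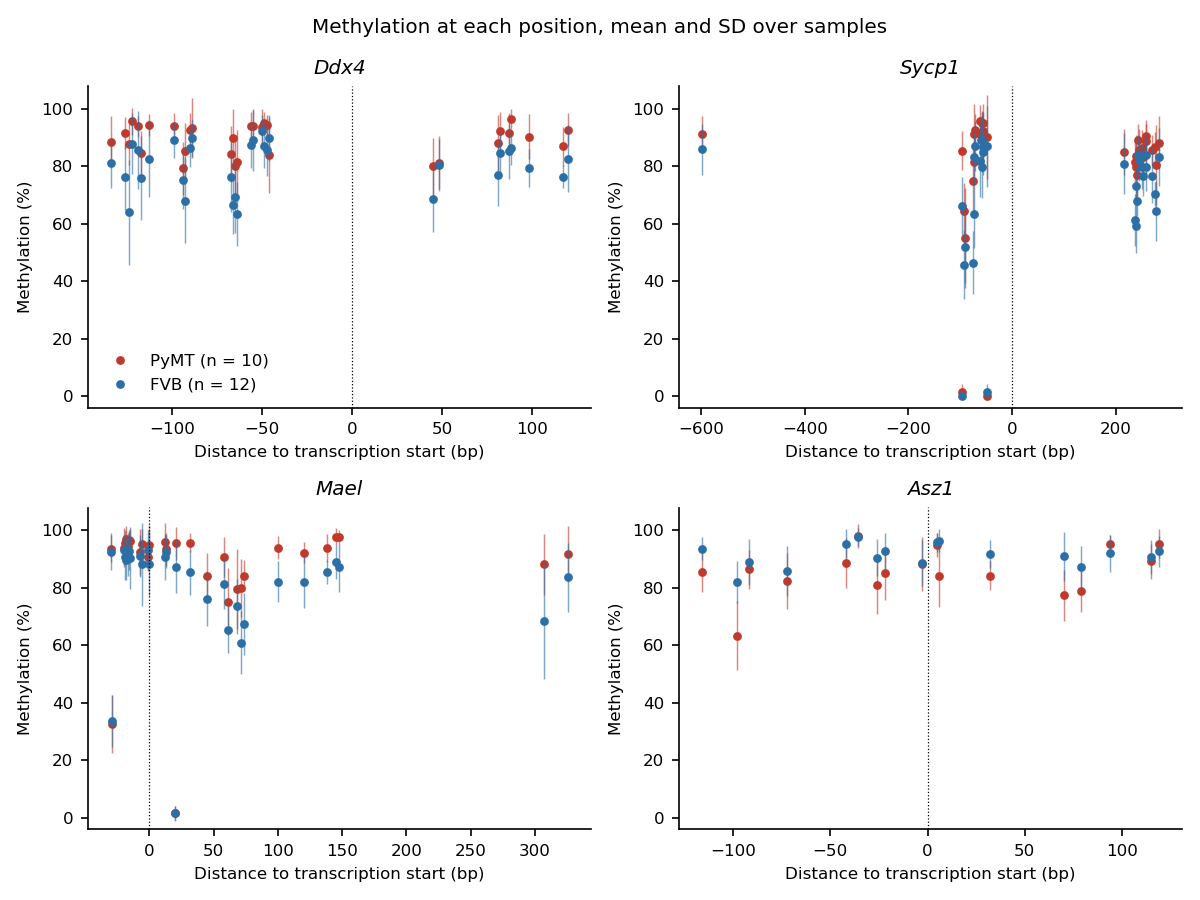
Methylation in percent (vertical axis) at each position covered in all samples against its distance to the TSS in bp (horizontal axis, positive downstream) in Ddx4, Sycp1, Mael and Asz1. Points are means over the 10 PyMT (red) and 12 FVB (blue) samples and lines are SDs. PyMT lies above FVB at 30 of 31, 31 of 32 and 27 of 30 positions in the first 3 and below it at 14 of 17 in Asz1.

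The remaining promoters did not pass the test over all weeks. Hormad1 had 32 positions from 1434 to 8 bp upstream of its TSS and differed by 0.841 points (95% CI -0.382 to 2.06, adjusted p = 0.328), with PyMT samples between 84.8% and 89.3% and FVB samples between 84.0% and 86.8%. Sycp3 had 25 positions, all downstream of its TSS, and differed by 1.81 points (95% CI -0.942 to 4.55, adjusted p = 0.354), with PyMT samples from 77.1% to 87.3% and FVB samples from 77.2% to 88.5%. Without FVB week 6 replicate 2, the sample at 88.5%, the difference of Sycp3 was 2.61 points and passed (limma adjusted p = 0.0441). Tdrd1 ranged from 60.7% to 81.9% in PyMT and from 62.0% to 76.6% in FVB, with a difference of 3.62 points (95% CI -0.998 to 8.24, adjusted p = 0.252). Over all weeks the lower ends of these intervals, which are not adjusted for the number of promoters, lay at -0.998 points or above. With single samples left out the estimate of Tdrd1 fell to as low as 2.45 points. At week 6 the difference was -6.83 points for Tdrd1 (95% CI -15.3 to 1.67) and -4.20 for Sycp3 (95% CI -9.23 to 0.833). For Hormad1 it was 1.19 points (95% CI -1.56 to 3.93). A loss at that age was thus not excluded.

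Dazl was the 1 member with a low average, 40.8% ± 1.70 in PyMT and 39.1% ± 0.569 in FVB, because its 94 positions fall into a methylated and an unmethylated stretch. From 618 bp upstream to 461 bp downstream of the TSS (chr17:50293620, minus strand), 38 positions were methylated at 92.6% ± 1.61 in PyMT and 91.2% ± 1.30 in FVB. From 598 to 878 bp downstream, in an intron, 47 positions were at 1.12% ± 1.10 and 0.602% ± 0.276. The change between the stretches took place over 9 positions from 472 to 537 bp, and this was where the strains stood furthest apart: these 9 positions were at 29.3% ± 7.24 (n = 10) in PyMT, with samples from 20.5% to 41.1%, and at 19.6% ± 3.04 (n = 12) in FVB, with samples from 14.4% to 24.4%. The stretch was delimited after the values were seen and was not tested. The sequence is from RefSeq, build GRCm38.p6, and capitals mark the CpGs in it that were measured in every sample. The first of these, at 461 bp, is the last of the methylated stretch and not part of the boundary.
Dazl intron, chr17:50293063-50293179, minus strand: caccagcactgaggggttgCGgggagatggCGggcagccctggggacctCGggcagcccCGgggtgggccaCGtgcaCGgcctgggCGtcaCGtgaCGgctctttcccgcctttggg

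Within the boundary the 3 positions 491 to 501 bp downstream of the TSS had a higher mean at each later age in PyMT. It was 31.2% at week 6 (21.5% and 41.0% in the 2 samples), 35.9% at week 8 (29.1%, 45.5% and 33.0%), 46.9% at week 10 (38.7%, 60.8% and 41.4%) and 60.5% at week 12 (52.1% and 68.9%). The FVB means were 20.3%, 31.9%, 24.4% and 22.3% at the same ages. At 491 bp the PyMT mean was below that of FVB at week 6 (18.1% against 24.3%) and week 8 (35.6% against 38.0%). At 500 bp it was below at week 8 (30.2% against 34.4%). At the other ages both were above FVB, as was the mean at 501 bp at every age. Of the 3 positions, the one at 501 bp was at 50.1% ± 13.9 in PyMT and 23.3% ± 12.4 in FVB (difference 26.8 points, limma adjusted p = 0.00109 over all positions). The position at 500 bp, the cytosine on the opposite strand of the same CpG, differed by 17.2 points and was not called (limma adjusted p = 0.13). Nor was the position at 491 bp (adjusted p = 0.264). The position at 501 bp lies in a CCGG site. The whole Dazl promoter differed by 1.76 points (SE 0.777) with a limma adjusted p of 0.094, but it passed under the exact permutation test (p = 0.000325, adjusted p = 0.0015), with a coverage minimum of 20 reads, within 500 bp of the TSS and in limma without a mean-variance trend.

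**Figure D4:**
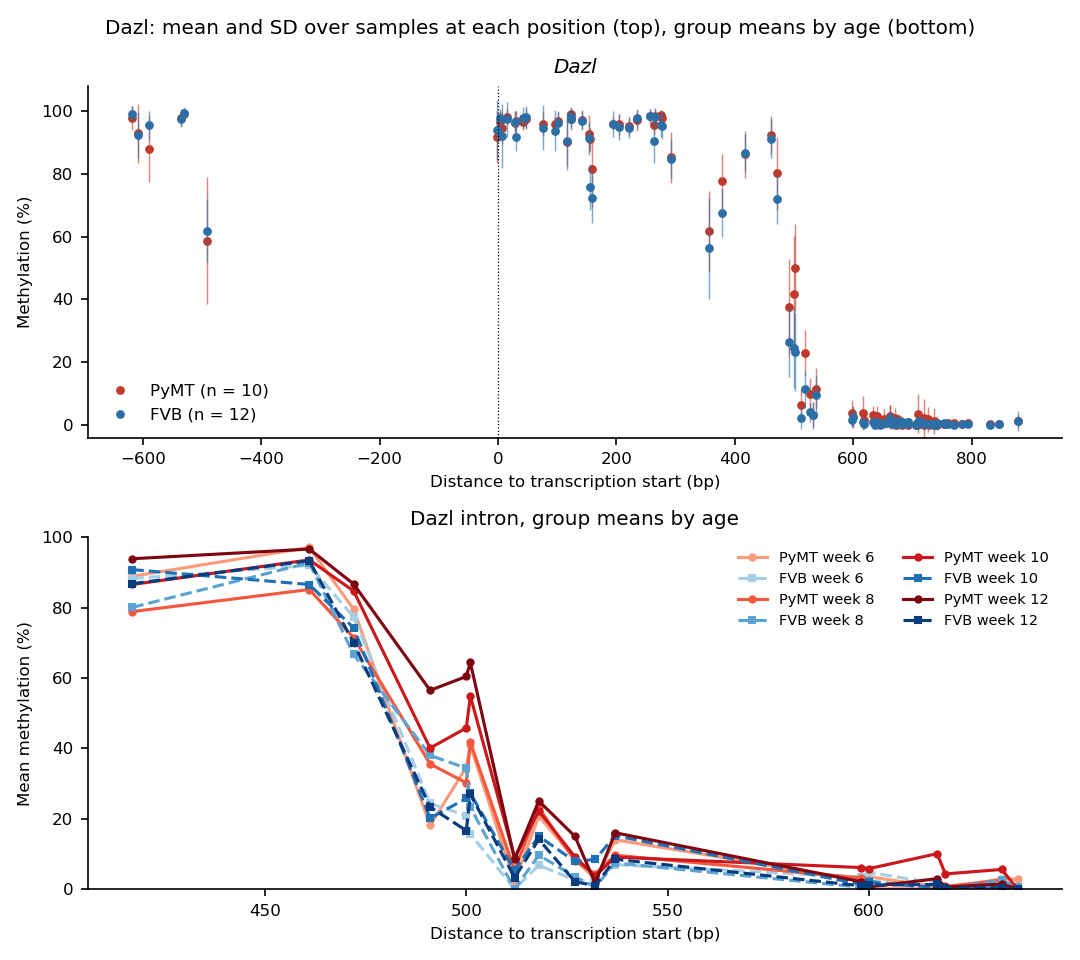
Methylation in percent (vertical axes) at each Dazl position against its distance to the TSS in bp (horizontal axes, positive downstream). The upper panel shows means and SDs over the 10 PyMT (red) and 12 FVB (blue) samples, the lower panel the group means by age across the boundary, with darker shades for older mice. The level drops from 92.6% to 1.12% in PyMT, and the mean of the 3 points between 491 and 501 bp is 60.5% in PyMT and 22.3% in FVB at week 12.

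At single stages, each with 2 or 3 PyMT samples against 3 FVB samples and a common limma fit of the 8 groups, 0 members were called at hyperplasia, where 5.85% of all promoters were lower and 2.82% higher. At an unadjusted p under 0.05, Sycp1 was higher and Asz1 lower at this stage. At adenoma/MIN, Ddx4 rose by 11.0 points (adjusted p = 0.00795) and Sycp1 by 8.83 points (adjusted p = 0.0328), with 8.75% of all promoters higher and 8.51% lower. At early carcinoma Mael (9.63 points, adjusted p = 0.00257), Sycp1 (11.1 points, adjusted p = 0.00567) and Ddx4 (9.50 points, adjusted p = 0.0149) were higher and Asz1 was lower (difference -6.35 points, adjusted p = 0.0134), against 11.6% higher and 10.6% lower of all promoters. At late carcinoma the same 3 promoters were higher, by 12.0 (Ddx4), 11.2 (Sycp1) and 8.77 points (Mael), with adjusted p of 0.0068, 0.0117 and 0.0115, and Asz1 (-7.99 points, adjusted p = 0.00621) and Piwil2 (-10.1 points, adjusted p = 0.0381) were lower, against 12.5% and 9.45% of all promoters. The late calls rest on 2 PyMT samples: without PyMT week 12 replicate 3, the lone PyMT sample of that age gave 0 members higher and 1 lower, and without FVB week 12 replicate 2, 1 member was higher. At adenoma/MIN the call of Sycp1 was lost without FVB week 8 replicate 2, the lowest for Ddx4 (71.7%), and Ddx4 then differed by 7.47 points (adjusted p = 0.0461). It was also lost without PyMT week 8 replicate 1 or 2 or FVB week 8 replicate 3, which left 1 member higher. At early carcinoma Asz1 was not called without PyMT week 10 replicate 2 or FVB week 10 replicate 3, which left 0 members lower, and Ddx4 not without PyMT week 10 replicate 1 or FVB week 10 replicate 3. At late carcinoma 1 member was lower without PyMT week 12 replicate 1 or without FVB week 12 replicate 1 or 3.

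The point estimates of the gaining promoters were larger in the carcinomas than in hyperplasia, but the change itself was not shown. The differences of Ddx4 were 3.44, 11.0, 9.50 and 12.0 points at weeks 6, 8, 10 and 12, and the change from weeks 6 and 8 to weeks 10 and 12 was 3.51 points (95% CI -2.50 to 9.52, limma adjusted p = 0.732). The change of Tdrd1 was 6.53 points (95% CI -1.53 to 14.6, adjusted p = 0.576). Next to it stood Sycp3, whose means in PyMT were 78.3%, 81.2%, 84.2% and 86.9% at the 4 ages while those in FVB were 82.5%, 79.9%, 80.0% and 81.4%. Its difference changed by 6.35 points (95% CI 1.58 to 11.1), and the adjusted p was 0.195. By limma 0 members were called for such a change, 1 (Sycp3) had an unadjusted p under 0.05, and 2.41% of all promoters were called with a rising difference and 0.122% with a falling one. Without FVB week 6 replicate 1, which had the lowest FVB value of Sycp3 (77.2%), the change of Sycp3 was 7.70 points and passed (adjusted p = 0.046).

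**Figure D5:**
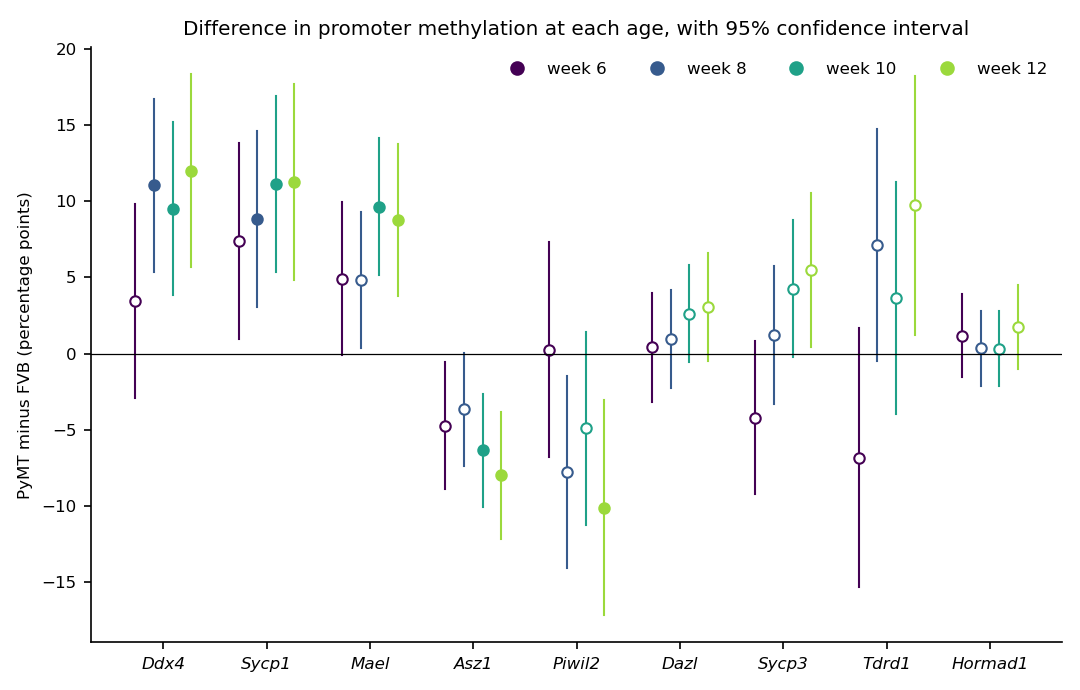
Difference in promoter methylation (PyMT minus FVB, percentage points, vertical axis) at weeks 6, 8, 10 and 12 for the 9 measured germline genes (horizontal axis). Points are limma estimates, lines their 95% confidence intervals, and filled points have an adjusted p under 0.05. No point is filled at week 6, and the filled points of Ddx4, Sycp1 and Mael lie above 0 while those of Asz1 and Piwil2 lie below it.

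Single CpGs were also compared stage by stage by a logistic test on pooled reads, calling a DMC where the q-value was below 0.01 and the pooled methylation differed by 10 points or more. Of the 291 positions, 10 were higher and 8 lower at hyperplasia, 31 and 4 at adenoma/MIN, 37 and 5 at early carcinoma, and 42 and 9 at late carcinoma. Over all promoter positions 0.887% were higher and 1.13% lower at hyperplasia, 1.15% and 1.37% at adenoma/MIN, 1.91% and 1.46% at early carcinoma, and 2.29% and 1.34% at late carcinoma, and over promoter positions with a control mean of at least 50% it was 6.24% and 16.8% at hyperplasia, 8.22% and 19.8% at adenoma/MIN, 10.8% and 22.2% at early carcinoma and 9.69% and 22.6% at late carcinoma. For comparison, 226 of the 291 germline positions had such a control mean. At late carcinoma the higher DMCs lay in Dazl (9), Mael (9), Ddx4 (8), Sycp1 (7), Tdrd1 (6), Sycp3 (2) and Hormad1 (1), and the lower ones in Asz1 (5), Piwil2 (3) and Dazl (1). This test treats reads as independent and takes no account of the spread between mice: with mice as replicates in limma, 0 positions were lower at any stage and 0, 0, 1 and 0 higher at the 4 stages under the same limits, although 14, 22, 33 and 36 were higher and 10, 4, 4 and 5 lower at an unadjusted p under 0.05. Over all weeks together, where more mice enter, limma called 40 of the 291 positions higher and 6 lower (adjusted p under 0.05), while 5.15% of all covered positions were higher and 9.26% lower. Among positions with a control mean of at least 50% it was 35 and 6 of 226, against 7.24% and 24.3%. PyMT was above FVB in this fit at 212 of the 291 positions, with no share over all covered positions set beside it. The positions are neighbours within 9 promoters and not independent. Among the 291, 51 Dazl positions had a control mean under 10%, and their strain means differed by a median of 0.258 points.

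Other germline genes did not share one direction. Of 82 genes in 4 lists (piRNA pathway, synapsis and cohesin, recombination, and germ cell regulators), 59 had a measured promoter, and 19 were higher and 16 lower in PyMT over all weeks. Over all promoters 16.9% were called higher and 17.1% lower. Among the 26 with a control mean of at least 50%, 5 were higher and 11 lower, with a median difference of -1.95 points, where 15.6% and 45.9% of such promoters were called. The piRNA list had 4 higher and 5 lower of 14, synapsis and cohesin 6 and 2 of 10, recombination 1 and 2 of 12, and germ cell regulators 8 and 7 of 23. The largest gains were those of the oocyte homeobox gene Nobox (63.8% in PyMT against 41.4% in FVB, 4 positions, adjusted p = 1.36e-06), of Hormad2, the paralogue of Hormad1 (61.1% against 44.5%, adjusted p = 5.95e-05), of the RNA-binding protein gene Rbm46 (35.8% against 20.9%, adjusted p = 1.85e-06), of Rnf17, a Tudor-domain gene (80.1% against 65.8%, adjusted p = 1.44e-05), and of Meioc, needed for meiotic entry (63.8% against 54.3%, adjusted p = 0.00011). The largest losses were those of the Tudor-domain piRNA gene Tdrd12 (6.67% against 25.5%, 6 positions, adjusted p = 1.64e-07), of Msh4, a crossover factor (78.9% against 89.6%, adjusted p = 1.71e-06), and of Nanos2, a translational repressor of male germ cells (39.5% against 49.7%, adjusted p = 0.00263). All were tested in the same limma fit.

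Promoters of genes that mark a cell type were called by the same limma test and averaged as lists in each sample. For comparison, 17.1% of all promoters were called lower and 16.9% higher in PyMT. The promoters of all 11 luminal epithelial markers were called lower in PyMT, and their mean level was 3.98% to 7.10% in PyMT samples against 14.2% to 19.9% in FVB samples. All 3 measured basal epithelial markers of 6 were lower too (list mean 21.1% to 25.2% against 24.6% to 33.7%). Of the adipocyte markers, 5 of 9 were measured, with 2 lower and 1 higher and a list mean of 40.6% to 49.0% in PyMT against 48.4% to 52.4% in FVB. The 4 measured leukocyte markers of 9 had 1 lower and 2 higher (30.6% to 40.9% against 33.8% to 37.7%), the 5 endothelial ones of 7 had 2 lower and 3 higher (32.1% to 35.8% against 23.7% to 28.9%), and the 4 fibroblast ones of 6 had 0 lower and 2 higher (3.02% to 7.43% against 1.68% to 5.38%). The part of the cell mix in the differences of the germline promoters was not tested. Mean methylation over all covered positions was 24.8% ± 0.180 in PyMT and 26.1% ± 0.157 in FVB.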

How the data were processed

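ERRBS profiles were made from mammary tissue of 10 PyMT and 12 FVB mice at 4 ages, after the authors had removed 2 samples as outliers. The authors aligned the reads to mm10 with Bismark, whose version is not given in the sources used here, and deposited for each CpG position covered by at least 10 reads the coverage as a count of reads, without normalization and with the strands kept apart. The percent of reads read as C (methylated) and as T were deposited beside it. Here the methylated reads were taken as coverage times percent, rounded. Bisulfite conversion was checked on mitochondrial CpGs, which were read as methylated in 0.172% to 0.276% of reads per sample. The strain, week and replicate number were taken from each label. All same-group pairs of samples differed by more than sampling noise (mean chi-square 1.83 to 3.51 per position over 20 pairs), so each counted as 1 replicate. P-values of limma and of the permutation test set a difference against the spread between mice, whereas those of the DMC test rest on reads pooled over mice.

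Positions covered in all 22 samples within 2 kb of a curated RefSeq TSS (GRCm38.p6, the build of mm10) were averaged without weights for genes with at least 3 of them. Promoters were compared in limma 3.58.1 (R 4.3.3, empirical Bayes with a mean-variance trend), with week and strain as terms over all weeks, or with 8 groups of strain and week for stages and for the change between weeks 6 and 8 and weeks 10 and 12, with Benjamini-Hochberg adjustment over all promoters and calls at an adjusted p under 0.05. Members were also tested by exact permutation of strain within week (40000 arrangements, smallest possible p 2.5e-05). DMCs came from a logistic likelihood-ratio test, with the q-value and difference limits given in the methods of the study, computed with NumPy 2.4.6 and SciPy 1.17.1. The steps were tested on simulated data. All members are named, with the other listed germline genes of largest difference among those called (up to 8) and, per member, up to 2 positions that were DMCs of 1 direction at every stage. By limits set after its values were seen, the Dazl boundary runs from past the last position with a control mean of at least 85% to the last with at least 5%, and its middle holds the positions with a control mean of 20 to 50%. Of other positions, the one with the largest difference in Ddx4 and in Asz1, those of Piwil2, the CpGs within motifs and the Dazl boundary were chosen after their values were seen. The members and gene lists, including the cell type markers, were chosen with earlier results of these data known. The position-wise limma test and the removal of CCGG sites or of positions that differ from their opposite strand were chosen after seeing the data. The other alternatives were the replicate block, a coverage minimum of 20 reads, merged strands, pooled reads, a log2 ratio scale, a 500 bp core promoter, predicted transcripts, genes with 1 position, limma without a trend, a 25-point DMC limit and leaving out each sample. Expression was not analysed here.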

Additional observations from a re-analysis of the deposited data

Results flagged for a closer look

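The Ddx4 promoter of PyMT week 6 replicate 2, at 82.8%, lay far below the other 9 PyMT samples (87.7% to 91.5%) by the gap rule of Dixon, which flags about 1 in 20 groups by chance. The rule was run on the 10 PyMT samples for each of the 9 measured promoters. Without this sample the difference of Ddx4 over all weeks was 10.2 points (limma adjusted p = 4.68e-06), against 9.13 points with it.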

How the results depend on the processing

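The 5 calls over all weeks (Ddx4, Sycp1, Mael, Asz1 and Piwil2) kept their direction and their side of the threshold under all 34 alternatives, with differences of 7.88 to 10.2, 9.13 to 11.5, 6.69 to 9.78, -6.02 to -5.08 and -6.61 to -4.82 points. Dazl passed the threshold in 4 of them (adjusted p 0.0015 to 0.0414). No difference of a single member reversed its sign in 702 comparisons with an alternative. PyMT and FVB samples of the same number did not deviate together (correlations of promoter deviations -0.141 to 0.0869 over 10 pairs), which gave no sign that the numbers pair the mice. In groups of 2 or 3 mice the deviations are bound to each other, so these correlations cannot exclude a pairing. With the replicate block 2 members were lower and 3 higher over all weeks, as without it, and higher DMCs at hyperplasia fell to 6 of the 10 without it. Over all promoters 2813 were lower and 2777 higher, but 994 and 1916 in the core promoter and 1714 and 2492 without CCGG positions. The cause was not tested. Members higher at adenoma/MIN numbered 1 in the core promoter (2 otherwise). Members lower at early carcinoma numbered 0 with at least 20 reads or without CCGG positions (1 otherwise), and at late carcinoma 1 on the log2 ratio scale, in the core promoter or without CCGG positions (2 otherwise). With each sample left out in turn, 0 to 1 members were higher at hyperplasia, 1 to 2 at adenoma/MIN and 0 to 4 at late carcinoma, 0 to 1 were lower at early and 1 to 2 at late carcinoma, and 0 to 1 had a rising difference between weeks.

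DMC counts fell with the stricter limit and with limma. At 25 points 1 lower and 2 higher were left at hyperplasia, 0 and 4 at adenoma/MIN, 0 and 8 at early carcinoma and 0 and 9 at late carcinoma. With limma 0 were lower at any stage and 0, 0, 1 and 0 higher. Lower DMCs were 5 at hyperplasia and 3 at early carcinoma with at least 20 reads, and 2 at adenoma/MIN in the core promoter. With each sample left out, lower and higher DMCs were 3 to 12 and 6 to 13 at hyperplasia, lower ones 4 to 8 at early and 4 to 8 at late carcinoma, and higher ones 15 to 35 at adenoma/MIN and 23 to 43 at late carcinoma. Counts moved by more than 1.5 times without PyMT week 6 replicate 1 (3 lower), FVB week 6 replicate 2 (5 lower) and FVB week 6 replicate 3 (6 higher) at hyperplasia, FVB week 8 replicate 2 (15 higher) at adenoma/MIN, PyMT week 10 replicate 3 (8 lower) at early carcinoma, and PyMT week 12 replicate 1 (4 lower) and replicate 3 (23 higher) at late carcinoma.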

Other observations

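In the methylated promoters 4 positions, each in a CCGG site, were more than 50 points below the cytosine on the opposite strand of the same CpG in the mean over all samples. In Mael, 20 bp downstream of the TSS, the position was at 1.44% in PyMT and 1.48% in FVB and its opposite at 95.5% and 87.4%, and 29 bp upstream it was at 32.6% and 33.7% against 93.6% and 92.7%. In Sycp1, 49 bp upstream, it was at 0% and 1.39% against 90.2% and 87.0%, and 96 bp upstream at 1.34% and 0.194% against 85.4% and 66.2%. Across the series 8222 of the 411472 positions with a covered opposite strand differed from it by over 50 points. The cause was not tested, and leaving these positions out changed no call of a member over all weeks.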
